A study of Mus musculus with 15 samples.

Results

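Replication-dependent histone genes were followed in 5 tissues of mice under 3 feeding regimens. The genes were taken by name: every locus of the deposited count table with a gene symbol beginning Hist1h, Hist2h, Hist3h or Hist4h. This gave 70 loci, carrying 65 different symbols, of 23589 named loci and 33603 loci in all. By class, 5 loci were linker histone H1, 19 were H2A, 17 were H2B, 13 were H3 and 13 were H4, and 3 loci joined genes of different classes. All 65 symbols were found in the GENCODE M21 annotation of GRCm38, most of them in the large histone cluster of chromosome 13 and smaller groups on chromosomes 3 and 11.

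The mice were male C57BL/6. AL mice were fed ad libitum and DR mice were under 40% dietary restriction, begun at 4 months of age and kept up for 1 month; both were 5 months old at death. DR-AL mice had the same restriction, returned to ad libitum feeding and were 7 months old, so in DR-AL the feeding history and the age cannot be told apart. Liver, epididymal fat, colon, hypothalamus and hippocampus were taken, and each tissue and diet gave 1 library of RNA pooled from several mice, 15 libraries in all. A diet difference within a tissue is therefore a difference between 2 pools, with counting error but no replicate check. By the methods, all tissues of a diet were harvested from the mice of 1 feeding group, so libraries of a diet can share animals across tissues. In bulk samples of this kind, fewer cells of a type and less RNA per cell cannot be told apart.

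Histones package DNA, and a cell that copies its genome has to make new histones at the same time. The mRNAs of replication-dependent histone genes are made mainly in S phase and, unlike other mRNAs, carry no poly(A) tail. They end shortly after a short hairpin, the stem-loop, which is bound by the stem-loop binding protein Slbp. RNA freed of ribosomal RNA, as used here, keeps such transcripts, whereas selection for poly(A) tails loses most of them. Some of these genes, Hist1h1c and Hist1h2bc among them, are also known to give longer, polyadenylated transcripts in cells that have stopped dividing. Hist1h1t, Hist1h2aa and Hist1h2ba are variants of the male germ line.

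The stem-loop is shown first because it defines the family. It was searched on the sense strand of the annotated transcripts as a stem of 6 paired bases that opens with GG and ends in T, around a loop of 4 bases that begins TTT, and was found for 42 of the 65 symbols. Over all 55341 gene names of the annotation, 57 (0.103%) held a match, 15 of them outside the list. The windows below are transcript strand, 5′ to 3′, from GENCODE M21, with the hairpin in capitals and 5 flanking bases on each side. They are those of the most abundant linker histone, a colon-rich H2A, the germ-line H1, an H2B that rose in fat, and 2 H4 genes whose stems differ from the others.
Hist1h1c: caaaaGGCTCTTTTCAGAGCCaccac
Hist1h2ac: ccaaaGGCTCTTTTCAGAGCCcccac
Hist1h1t: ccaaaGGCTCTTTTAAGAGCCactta
Hist1h2bp: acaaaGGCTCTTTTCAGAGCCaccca
Hist1h4i: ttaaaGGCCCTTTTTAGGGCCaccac
Hist4h4: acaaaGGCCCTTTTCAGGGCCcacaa

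The form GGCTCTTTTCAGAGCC was shared by 24 symbols of the H1, H2A, H2B and H3 classes. The stem with 3 C bases after the opening GG, as in Hist1h4i and Hist4h4, was seen in 9 symbols, all H4: 7 with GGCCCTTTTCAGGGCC and 2 with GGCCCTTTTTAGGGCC. No match was found in the annotated transcripts of Hist1h2bc, Hist2h2be, Hist1h2aa or Hist1h2ba, which says only that these letters are not in those annotated sequences. The distance from hairpin to annotated end varied widely. It was 840 bases in Hist1h1c (GRCm38 chr13:23738808-23740367, plus strand), 2010 bases in Hist1h2ac (chr13:23681467-23683948, minus strand) and 2445 bases in Hist4h4 (chr6:136801553-136804415, minus strand), against 3 bases in Hist1h4m (chr13:21811746-21812147, plus strand).

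Promoter sequence was matched by gene ID to RefSeq (GRCm38.p6) for 51 of 58 member names looked up. In the 250 bases before the start, either strand, CCAAT was present in 14 of 14 H2A, 12 of 12 H2B and 5 of 5 H1 promoters, in 7 of 9 H3 and in 3 of 11 H4 promoters, against 33.8% of all 32851 promoters. The octamer ATTTGCAT was present in 6 of 14 H2A and 5 of 12 H2B promoters and in none of the H1, H3 and H4 promoters, against 1.6% of all. The searched windows of some H2A and H2B genes overlap, as those of Hist1h2ae and Hist1h2bg do, so the same letters can count in both classes. A match is a description of the letters, not a bound site.

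The libraries held 21767088 to 40500130 counts on named loci, with a median of 26554699. The marker list of each tissue had its highest sum in the libraries labelled as that tissue, and the liver list also summed to 1640 to 2690 CPM in hippocampus, CPM being counts scaled to a common total on named loci. That hippocampus sum was nearly all Ttr, with 109059, 51236 and 65481 counts for AL, DR and DR-AL, where Apoa1 had 26, 8 and 9. The liver marker Alb had 0 counts in every library, liver included. Other markers stood out in fat. There, markers of testis germ cells summed to 12.4, 605 and 3030 CPM for the AL, the DR and the DR-AL library, epididymis markers to 908, 3180 and 5110 CPM, and liver markers to 10700, 5270 and 4110 CPM. Cyp2e1 held most of these liver sums, with 227711, 119637 and 112244 counts. Other liver markers fell much further, Apoa1 from 32008 to 262 and 81 counts and Ttr from 12348 to 247 and 20. All 5 liver loci tested in fat were lower in DR and in DR-AL. The fat libraries thus stood apart from each other, and results that rest on them are given with these values or without them.

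The histone loci held 119476 counts over the 15 libraries, and a pair of genes held most of them: Hist1h1c, encoding linker histone H1.2, with 51872 counts and Hist1h2bc, an H2B gene, with 36560. The median locus had 24 counts, 5 loci had none, and 26 never exceeded 3 counts in a library, which is the number a count of 0 still allows. The 7 loci of genes known to make polyadenylated transcripts as well held 89.3% of the counts. They were Hist1h1c, Hist1h2bc, Hist2h2be, Hist3h2ba, Hist4h4 and the joined loci Hist3h2a,Trim17 and Hist1h2bc,Hist1h4h. Trim17 is not a histone gene, and the locus joined with it held 11599 of these counts.

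Counts followed the length of the annotated transcript. Over 55 loci with 1 symbol, on the annotated strand and without a second copy, the 13 with a transcript of at least 1000 bases had a median of 492 counts and held 81.4% of all histone counts. The 29 under 600 bases, the size of the classical hairpin-ended message, had a median of 6 counts and a highest total of 75, and held 0.364%. Of those 29, 20 never exceeded 3 counts in a library. Spearman's correlation across these 55 loci between length and counts was 0.676, given as a description since a longer transcript also collects more reads. The short genes were also the most alike: a median of 55.4% of their 75-base words occurred in another gene, against 6.66% for the long ones, and the study removed duplicate reads. The part of near-identical copies, of duplicate removal and of transcript length in the low counts was not tested, so a low count here does not show that a gene was silent.

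**Figure D1:**
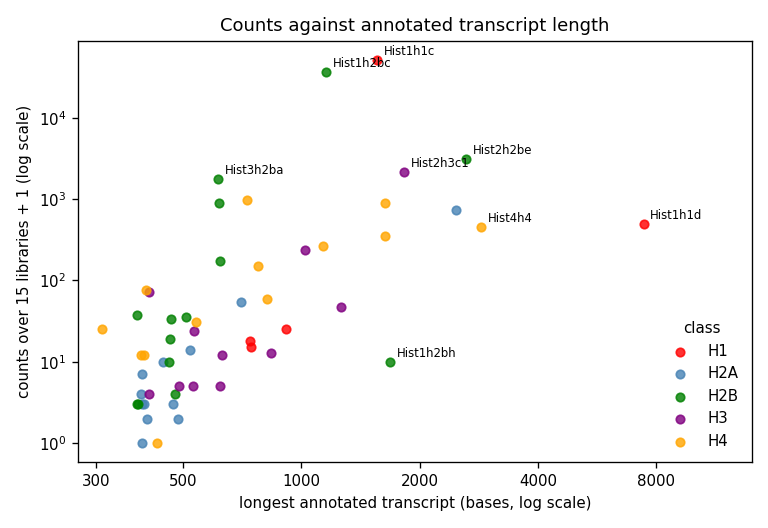
Counts summed over the 15 libraries plus 1 (vertical, log scale) against the longest annotated transcript in bases (horizontal, log scale) for 55 single-symbol histone loci, coloured by class. Hist1h1c and Hist1h2bc stand above all others, and the 29 loci under 600 bases all lie at or below 75 counts.

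Colon had the most histone RNA. Summed over the 70 loci, the level was 632 to 799 CPM in the 3 colon libraries, 228 to 332 in fat, 138 to 269 in liver, 109 to 126 in hippocampus and 98.0 to 106 in hypothalamus. The colon range lay above all others, and those of fat and liver overlapped. Hist1h1c and Hist1h2bc made up 85.4 to 88.7% of the sum in colon and 88.6 to 92.6% in liver but 33.0 to 34.3% in hippocampus. Without them, colon (71.6 to 117 CPM), fat (73.5 to 165), hippocampus (72.6 to 83.1) and hypothalamus (61.8 to 64.9) came closer together, and liver was lowest at 15.8 to 19.8 CPM. This rest included the locus joining Hist3h2a with Trim17, a neighbour that is not a histone gene. With that locus left out too, colon was at 50.5 to 84.4 CPM and fat at 56.5 to 81.0. Hippocampus (39.1 to 45.8) and hypothalamus (39.0 to 41.7) then lay below both, and liver was still lowest at 10.8 to 15.7.

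**Figure D2:**
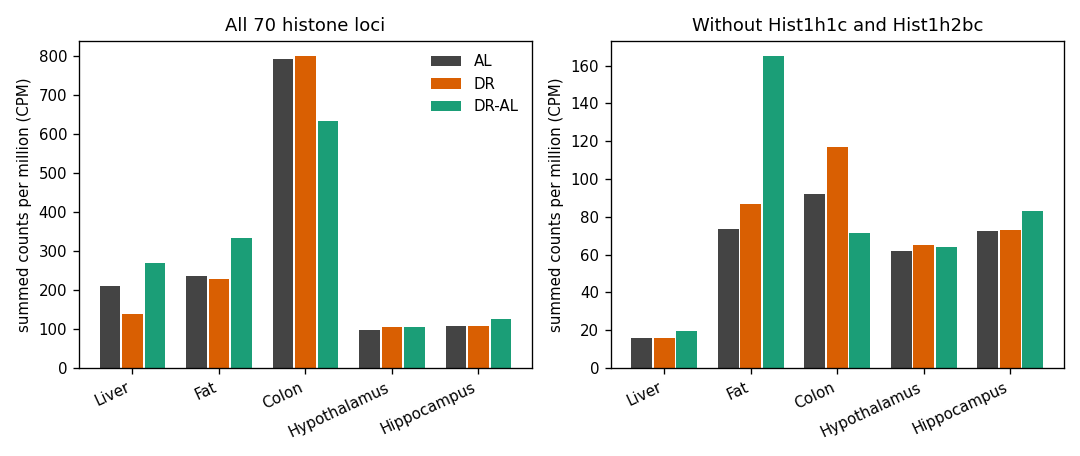
Summed CPM of all 70 histone loci (left) and of the 68 loci other than Hist1h1c and Hist1h2bc (right) by tissue, 1 bar per library coloured by diet. Colon is highest on the left, at 632 to 799 CPM, and on the right liver is lowest while the DR-AL fat library, at 165 CPM, is highest. Of those 165 CPM, 83.9 are the locus joining Hist3h2a with Trim17, which is not a histone gene.

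Which histone genes differ between tissues was tested by edgeR's quasi-likelihood test of each tissue's 3 libraries against the mean of the other 4 tissues, with diet as a term. The 3 libraries of a tissue differ in diet, so the spread in this test is that between pools of different diets. Of the 70 loci, 24 passed the filter on low counts and were tested among 17476 genes, with p-values adjusted by Benjamini-Hochberg over all of them. A locus passed when it was high enough in 1 tissue, so these 24 do not stand for all members. The differences are between mean log levels after scaling by TMM, edgeR's correction for library composition, and are not ratios of the mean CPM. The TMM factors were 0.552 to 0.582 in liver and 1.14 to 1.41 in fat, and with library totals in place of TMM, an alternative chosen after seeing the data, the median log2 difference of all genes moved from -0.33 to -1.36 in liver, 0.15 to 0.59 in fat, 0.04 to 0.54 in hypothalamus, -0.01 to 0.18 in hippocampus and -0.24 to -0.38 in colon. The share of all calls that were higher moved from 45.0 to 20.7% in liver, 59.2 to 81.1% in fat and 54.8 to 72.5% in hypothalamus.

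In colon, 15 of the 24 were higher and 0 lower, where 33.3% of all genes tested were higher and 37.8% lower. The median log2 difference was 1.53 for the 24 loci and -0.24 for all genes. With library totals 14 were higher and 0 lower. Hist1h1d, Hist1h4m and Hist1h4j passed the count filter only through their colon libraries, so their calls in colon are a description and no separate support. Hist1h1c was at 458 ± 71.2 CPM in colon (SD, n = 3) and 12.2 to 91.2 CPM in the other 12 libraries, a log2 difference of 4.04 ± 0.29 (SE, edgeR adjusted p = 2.67e-07). Hist1h1d, encoding H1.3, differed most, with 4.92 ± 2.15 CPM in colon against 0.0397 to 0.548 elsewhere (log2 5.11 ± 0.44). No library outside colon reached the colon range of either gene.

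Core histone genes were higher in colon as well. Hist1h2ac was at 4.99 ± 2.52 CPM in colon and at most 1.43 CPM elsewhere (log2 3.15), and the H4 genes Hist1h4m, Hist1h4j, Hist1h4d and Hist1h4i were higher by log2 4.45, 2.84, 2.42 and 2.21. The H3 gene Hist2h3c1 was higher by log2 1.32, with colon and other libraries overlapping. Hist1h2bc was at 190 ± 10.8 CPM in colon, and 1 liver library, at 188 CPM, lay within the colon range. Genes of S phase and cell division, a list of 31, summed to 422, 782 and 430 CPM in the AL, DR and DR-AL colon libraries and to between 145 and 497 CPM in the other 12. The highest of those, 497 CPM, was the DR-AL fat library, above 2 of the 3 colon libraries.

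In liver, 3 loci were higher and 10 lower, where 33.6% of all genes were higher and 41.0% lower. Scaled to library totals instead, 1 was higher and 16 lower, against 16.8% and 64.0% of all genes. Hist1h2bc was higher under both scalings, at 143 ± 40.4 CPM against a mean of 77.6 elsewhere, by log2 2.47 ± 0.13 (edgeR adjusted p = 2.47e-08) with TMM and 1.43 ± 0.11 with totals; the liver range overlapped that of the other libraries, and colon was higher. By the deposited FPKM, which corrects for transcript length, Hist1h2bc was above Hist1h1c in each liver library (525 against 133 in AL) and below it in colon AL (392 against 506). The other 2 loci called higher, the H3 genes Hist2h3c1 and Hist2h3c2 (log2 0.66 and 0.80), had no higher mean CPM in liver than elsewhere (3.83 against 5.42 and 0.501 against 0.582) and turned to log2 -0.38 and -0.23, neither called, when scaled to library totals. Hist3h2ba, an H2B gene, had 0 counts in all 3 liver libraries, where a count of 0 allows up to 0.121 to 0.138 CPM.

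The brain regions carried little Hist1h1c and a good deal of Hist3h2ba. In hippocampus 4 loci were higher and 9 lower, against 37.4% and 34.4% of all genes, and in hypothalamus 3 were higher and 10 lower, against 38.8% and 32.0%. With library totals it was 5 and 7 in hippocampus and 5 and 5 in hypothalamus. Without the hippocampus AL library 8 loci were called in hippocampus. Hist3h2ba was at 9.68 ± 1.38 CPM in hippocampus and 8.09 ± 0.931 in hypothalamus, and at most 0.866 CPM in any liver, fat or colon library. Its log2 differences were 5.36 ± 0.32 and 4.74 ± 0.33. This gene passed the count filter only through the brain libraries, and the Hist2h3b locus described below only through those of hippocampus. Their calls there are a description and no separate support. The ranges of the brain regions overlapped. A locus named Hist2h3b but lying opposite to the annotated strand was at 1.31 ± 0.223 CPM in hippocampus and at most 0.449 CPM elsewhere; the counting kept the strand, so this is not a measure of the H3 mRNA, although the locus is among the 13 H3 loci by its symbol and is 1 of the loci called higher in both brain regions. Hist1h2bc (log2 -1.91 and -2.53) and Hist1h1c (-2.67 and -2.39) were lower in hippocampus and hypothalamus.

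In fat, 7 loci were higher and 2 lower, against 37.6% and 25.9% of all genes; the 9 calls became 14 with DESeq2, 14 without the filter on low counts, and 14 higher and 0 lower with library totals. The joined locus Hist1h2bc,Hist1h4h was at 8.18 ± 2.38 CPM and at most 5.31 CPM elsewhere (log2 2.17 ± 0.27, edgeR adjusted p = 4.1e-05), and both Hist2h2aa2 loci tested were also above every other library. Hist2h2aa2 is annotated on the minus strand, and 1 of these loci was on the plus strand. The symbol stands for 2 copies, and the strand was not checked copy by copy, so neither locus is taken as a measure of H2A mRNA. Of the tissue counts, that of fat depended most on its libraries: it was 7 without the DR-AL fat library and 13 without the AL fat library. With all fat libraries left out, 19 loci were called in colon.

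**Figure D3:**
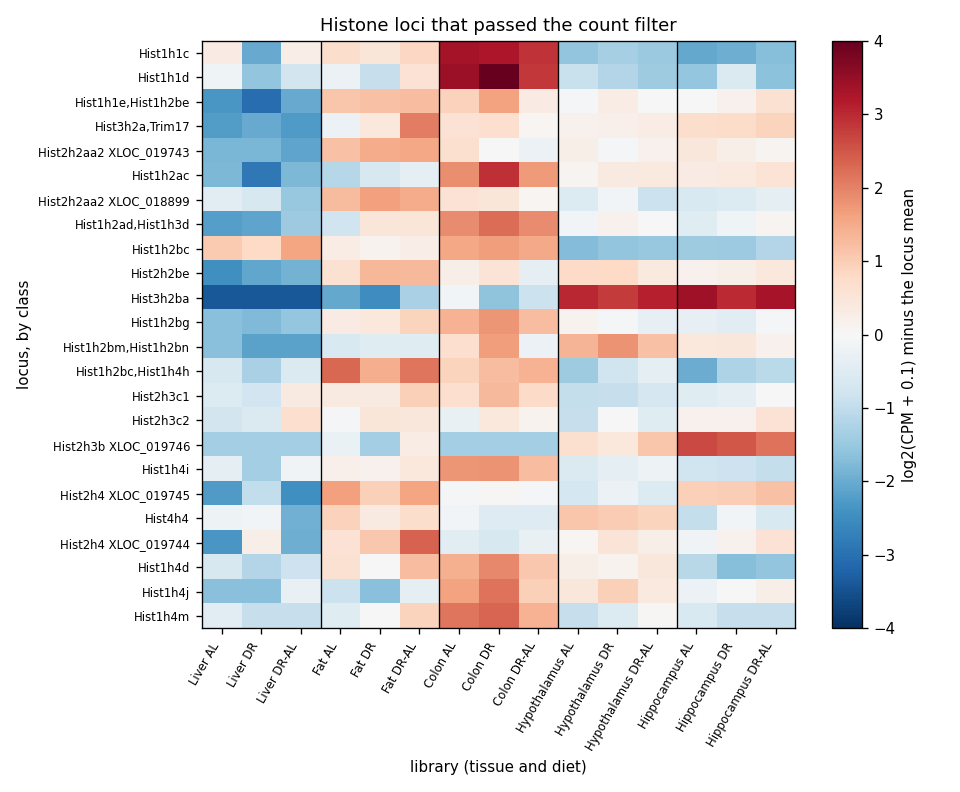
The 24 loci that passed the count filter (rows, by class) in the 15 libraries (columns, by tissue and diet), coloured by log2(CPM + 0.1) minus the mean of the locus. Hist1h1c and Hist1h1d are red in the colon columns, and Hist3h2ba is red in both brain regions and at its lowest in liver.

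Diet was then compared within each tissue by the Z test of the study's methods, on square roots of the counts divided by the library total with Poisson variance. A locus was called at a Benjamini-Hochberg adjusted p under 0.05 over all genes with a count in the tissue and the smallest fold change that the study's methods accept. Because each side is 1 library, a call compares those pools and not the diets, and intervals given with fold changes are exact 95% Clopper-Pearson intervals for counting error only. Over the 10 comparisons with AL there were 63 calls at 38 loci; 26 calls were at a mean under 20 counts in the tissue, and for 16 of these the interval held 0. Both comparisons in a tissue share the AL library.

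In liver, Hist1h1c fell under DR and was back near the AL level in DR-AL. It had 1593 counts with AL, 269 with DR and 1503 with DR-AL, or 64.4, 12.4 and 61.4 CPM. The DR library was 5.2-fold lower (log2 -2.38, interval -2.57 to -2.19), and this call also passed with an assumed coefficient of variation of 0.1 between pools. The neighbouring Hist1h2bc, in the same cluster, had 3236, 2398 and 4597 counts and was called only as higher in DR-AL (log2 0.52). The H4 gene Hist1h4i had 34, 14 and 40 counts (log2 -1.07 in DR, interval -2.11 to -0.16). Hist2h3c1 had 76, 57 and 142 counts and was higher in DR-AL (log2 0.91, interval 0.50 to 1.34). Of 42 loci tested, 2 were called higher and 2 lower in DR, where 18.0% and 9.92% of all genes were called, and 5 higher and 1 lower in DR-AL, where 15% and 15.8% were. The 2 higher in DR were the Hist2h4 loci, with 1 and 16 and with 6 and 16 counts. Without Hist1h1c and Hist1h2bc the liver sum was 15.8 CPM in both AL and DR. Leukocyte markers summed to 13.2, 7.49 and 13.1 CPM in these libraries, with 4 of 8 loci lower in DR. Adipocyte markers summed to 33.7, 23.7 and 91.5 CPM, nearly all of it from Cidec and Lipe. These loci did not move together: of 6 adipocyte loci tested, 2 were called higher and 2 lower in DR. The part of either marker list in the Hist1h1c difference was not tested.

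In colon, several replication-dependent histone genes were higher under DR and near or below the AL level in DR-AL. Hist1h2ac, an H2A gene, had 99, 264 and 84 counts for AL, DR and DR-AL (DR log2 1.08, interval 0.74 to 1.43). Hist1h1d had 120, 242 and 75 counts (DR log2 0.68; DR-AL -0.59). The joined locus Hist1h1e,Hist1h2be had 208, 422 and 129 counts (DR log2 0.69; DR-AL -0.60). For these 3 loci the DR library was the highest of the colon libraries also in CPM.

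Hist2h3c1 had 193, 374 and 192 counts (DR log2 0.62, interval 0.37 to 0.88), and the joined H2B locus Hist1h2bm,Hist1h2bn had 16, 44 and 7 (DR log2 1.11). The most abundant gene did not share the rise: Hist1h1c had 13667, 16045 and 9474 counts, or 515, 480 and 378 CPM, and was called lower in DR-AL (log2 -0.44). Against the pattern, a Hist2h2aa2 locus with 66, 53 and 33 counts was called lower in DR as well as in DR-AL. Whether that locus lies on the strand of the H2A gene was not checked. The joined Hist1h2bc,Hist1h4h locus, with 98, 157 and 133 counts, was called higher in DR-AL. Of 57 loci tested, 7 were called higher and 2 lower in DR, against 9.04% and 10.6% of all genes, and 2 higher and 7 lower in DR-AL, against 5.83% and 8.5%. Among the 18 loci with a mean of at least 20 counts, 6 were higher and 1 lower in DR, where 11.7% and 12.8% of all genes at that level were called, with a median log2 fold change of 0.35 against 0.01 for all genes. In DR-AL 1 was higher and 7 lower, against 7.02% and 10.1%, with a median of -0.47 against -0.01. Left without Hist1h1c and Hist1h2bc, the sum was 91.9 CPM with AL, 117 with DR and 71.6 with DR-AL. Under that assumed variation between pools, 1 of these colon calls remained in DR, Hist1h2ac, and 0 in DR-AL.

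Genes of S phase and cell division moved in the same colon libraries. Of 33 loci tested from that list, 26 were higher and 0 lower in DR, with a median log2 fold change of 0.77, and in DR-AL 5 were higher and 6 lower, with a median of -0.01. The proliferation gene Mki67 was at 45.4, 131 and 41.2 CPM with AL, DR and DR-AL, and Top2a, a topoisomerase of dividing cells, at 26.8, 62.8 and 19.9. Slbp, which binds the hairpin, was at 31.1, 42.9 and 40.8 CPM. Of 15 loci for histone transcription and 3′ end processing, 4 were higher and 0 lower in DR and 5 higher and 0 lower in DR-AL. Of 11 replication-independent histone variants 3 were higher and 0 lower in DR and 0 higher and 3 lower in DR-AL; H2afz, 1 of the 11, was at 107, 151 and 114 CPM. Leukocyte markers moved the other way: all 7 tested were lower in DR, with sums of 21.3, 7.18 and 35.9 CPM. Of 6 adipocyte marker loci tested, 5 were lower in DR, with sums of 42.1, 24.8 and 32.8 CPM. Colon epithelium markers summed to 17600, 17000 and 17300 CPM. The part of a change in cell makeup in the histone difference was not tested.

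**Figure D4:**
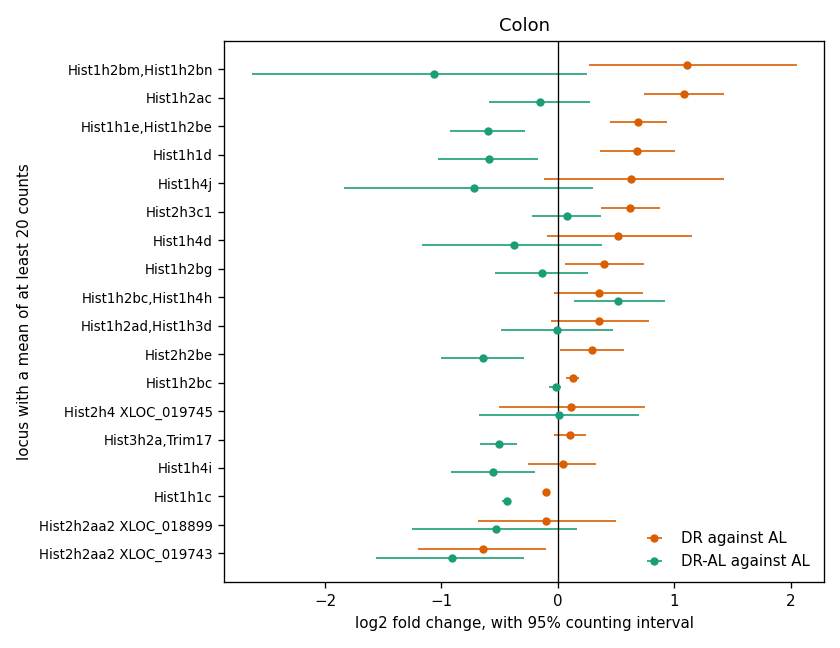
Log2 fold change against AL in colon for the 18 histone loci with a mean of at least 20 counts, DR in orange and DR-AL in green, with 95% counting intervals. Hist1h2ac, Hist1h1d and the Hist1h1e,Hist1h2be locus lie right of 0 in DR, and most DR-AL points lie left of it.

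In fat, the germ-line variants stayed near 0 while other spermatid genes rose far above them. Hist1h1t had 3, 4 and 11 counts for AL, DR and DR-AL, and Hist1h2aa and Hist1h2ba each had 0, 0 and 2. In the same libraries H1fnt and Hils1, spermatid linker histones outside the replication-dependent family, had 1, 324 and 2380 and 0, 184 and 1644 counts. The protamine gene Prm1 had 2, 1437 and 10028 counts at 1 locus. Another Prm1 locus had 13, 59 and 222 counts in fat and 322 to 417 in hypothalamus. All 10 loci tested for testis germ cell markers were higher in DR and in DR-AL. Whether the messages of these germ-line variants were missing from the tissue or from the counts was not tested.

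Other histone loci also rose in fat, some of them only in DR-AL although those markers were already higher in DR. Hist1h2bp, an H2B gene, had 1, 22 and 147 counts in fat and at most 2 in any other tissue. The locus joining Hist3h2a with Trim17, a neighbour that is not a histone gene, had 446, 614 and 2295 counts (DR-AL log2 2.30, interval 2.16 to 2.45), and the reads of the joined genes cannot be told apart. Its deposited FPKM, whose scaling between libraries is not given in the sources used here, was 7.34, 6.26 and 8.61. The size of this rise thus depends on the unit. The FPKM of Hist1h2bp was 0.0658, 0.929 and 2.97. Hist1h4a had 3, 3 and 22 counts. Hist1h3a had 0, 0 and 13 on the annotated strand and 0, 3 and 16 on the opposite strand.

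Of 51 loci tested in fat, 6 were called higher and 3 lower in DR, against 35.2% and 10.4% of all genes, and 15 higher and 0 lower in DR-AL, against 46.0% and 11.9%. Among the 17 loci with a mean of at least 20 counts, 4 were higher and 2 lower in DR, where 39.5% and 11.7% of all genes at that level were called, and 7 higher and 0 lower in DR-AL, where 47.9% and 13.9% were. Scaling mattered here: with DESeq size factors the median log2 fold change of all genes averaging 10 counts or more moved from 0.24 to 0.05 in DR and from 0.34 to 0 in DR-AL, and the share of calls that were higher fell from 77.3 to 61.2% and from 79.5 to 57.5%. In liver DR it fell from 64.5 to 50.6%. Among the loci lower in fat DR were Hist1h2bc,Hist1h4h, with 264 and 126 counts, and 1 of the Hist2h4 loci, with 133 and 70.

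**Figure D5:**
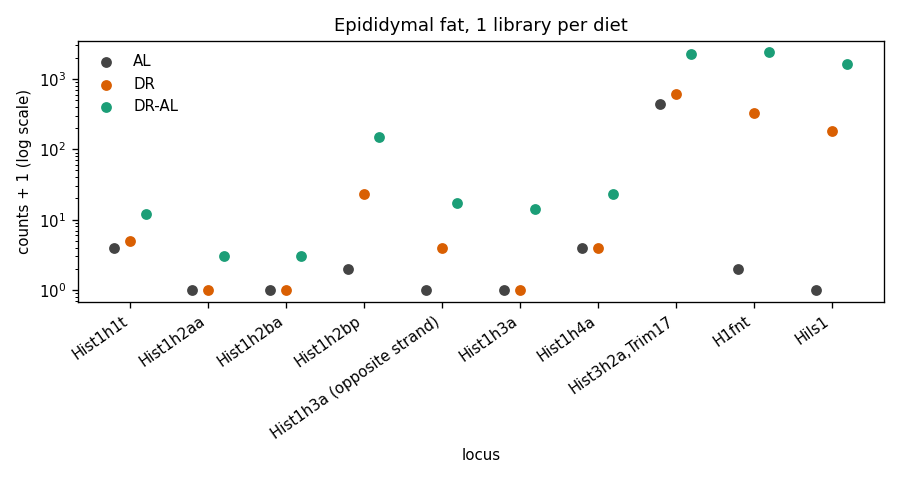
Counts plus 1 (log scale) in the AL, DR and DR-AL fat libraries for the germ-line histone variants, other histone loci that moved in fat, and the spermatid linker histones H1fnt and Hils1. Hist1h1t, Hist1h2aa and Hist1h2ba stay at 11 counts or fewer, where H1fnt and Hils1 reach 2380 and 1644.

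The brain regions showed few differences, and with the assumed coefficient of variation of 0.1 between pools 0 calls were left in either region and comparison. In hippocampus Hist3h2ba had 437 counts in AL and 254 in DR (log2 -0.41, interval -0.64 to -0.18), the only locus called of 46 tested: 0 were higher and 1 lower, against 1.36% and 2.67% of all genes. In DR-AL, 3 were higher and 0 lower, against 3.99% and 2.16%, among them the Hist1h1e,Hist1h2be locus (169 and 160 counts, log2 0.61 after scaling to totals) and Hist1h1c (495 and 387, log2 0.33). In hypothalamus 1 of 47 was higher and 0 lower in DR, against 4.33% and 2.72%, and 5 were higher and 1 lower in DR-AL, against 6.06% and 9.02%. Of those 5, the Hist1h2bc,Hist1h4h locus rose from 20 to 47 counts and the other 4 were 0 against 3 counts, for which the interval held 0. Hist2h2be, an H2B gene, had 290 and 239 counts (log2 -0.35).

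Over the 5 tissues together, no histone locus was called for diet. In the edgeR test with tissue as a term, 0 of 24 passed for DR, with 0 at an unadjusted p under 0.05 and a smallest adjusted p of 1, and 0 of 24 for DR-AL, with 0 at an unadjusted p under 0.05 and a smallest adjusted p of 0.852. Over all genes 0.00572% were called higher and 0.00572% lower in DR, and 0.00572% higher and 0.0% lower in DR-AL. DESeq2 also called 0 of these loci in either comparison. The tissues of a diet came from 1 feeding group, so this test rests on 1 group of mice per diet.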

How the data were processed

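Ribosomal RNA was depleted and stranded libraries were sequenced from pooled RNA. The authors trimmed and aligned the reads with Strand software and removed duplicates; the methods name mm10 and the submitters' processing notes name mm9 and DESeq2, so coordinates were looked up by symbol in GENCODE M21 (GRCm38). The authors deposited 1 table that gives, per library, the raw count and the FPKM of every locus (30 columns, all mapped to samples). Counts were tested. The deposited FPKM were used only to compare 2 genes within a library and, as a description, to set a few loci side by side between fat libraries.

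CPM are counts divided by the total on named loci; unnamed loci held 0.258 to 1.39% of counts and were left out. Log2 fold changes within a tissue used a pseudocount of 0.5. Tissues were tested with edgeR 4.0.16 (TMM, filterByExpr; R 4.3.3), with DESeq2 1.42.0, and library totals in place of TMM, as alternatives. Both tests were run on simulated counts as a check of the code only. For the Z test these counts held no variation between pools, and in both the changed genes were more abundant than most histone loci. Loci named are the 3 highest of each class, the germ-line and polyadenylation-capable genes, and up to 2 called per direction and comparison at a mean of at least 20 counts; other names were chosen after their values were seen. The members and gene lists were chosen with earlier results of these data known. Intervals and the floor of 3 counts cover counting error only.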

Additional observations from a re-analysis of the deposited data

Results flagged for a closer look

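Some loci were called in opposite directions in different tissues under the same comparison, DR-AL against AL; the difference between tissues was not tested. Hist1h1c was higher in hippocampus (log2 0.33) and lower in colon (-0.44). The Hist1h1e,Hist1h2be locus was higher in hippocampus (0.61) and lower in colon (-0.60). Hist2h2be was higher in fat (0.71) and lower in colon (-0.64) and hypothalamus (-0.35); its deposited FPKM in fat, whose scaling between libraries is not given in the sources used here, went from 2.88 with AL to 1.56 with DR-AL, so the direction in fat depends on the unit. The Hist3h2a,Trim17 locus was higher in fat (2.30) and lower in colon (-0.51). In fat its deposited FPKM was 7.34 with AL and 8.61 with DR-AL.

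Loci without a gene name within the span of the histone clusters also gave a signal above the AL library. An unnamed locus on chromosome 13 had 22 counts in colon AL, 83 in DR and 11 in DR-AL (DR log2 1.56, interval 0.89 to 2.33). In fat, 2 others on chromosome 13 were higher in DR-AL, from 15 to 46 counts (log2 1.52, lower bound of the interval 0.69) and from 28 to 48 (0.71, interval 0.01 to 1.44), and 1 on chromosome 11 went from 29 to 49 (0.69, interval 0.0 to 1.41). The intervals of the last 2 reach to about 0, and the median of all genes averaging 10 counts or more was 0.34 in that comparison.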

How the results depend on the processing

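The diet calls rested on counting error. When pools were assumed to vary with a coefficient of 0.1, calls went to 2 in liver DR and 2 in DR-AL, 5 and 9 in fat, 1 and 0 in colon, 0 and 0 in hypothalamus, and 0 and 0 in hippocampus. With a mean of at least 10 counts required, they were 2 in liver DR, 7 in fat DR-AL, 0 in hypothalamus DR and 2 in hypothalamus DR-AL. DESeq size factors kept all 10 diet counts within 1.5 times. In the tissue test, the fat count was 14 with DESeq2, 14 without the filter and 14 with library totals; totals also turned Hist2h3c1 and Hist2h3c2 in liver to log2 -0.38 and -0.23. Leaving out each library gave 13 to 18 calls in colon, 7 to 13 in fat, 8 to 13 in hippocampus, 9 to 15 in hypothalamus, 12 to 17 in liver, and 0 for both diet comparisons over tissues; without the hippocampus AL library the hippocampus count was 8. Of 63 alternative values for named loci in the diet comparisons, 14 lost the call, and of 344 in the tissue comparisons, 32 did and these 2 reversed. No paired analysis was possible because each tissue and diet has 1 library and the labels carry no replicate numbers to pair; the tissue and diet terms already stand in the tests over all libraries. Among the 26 loci that never exceeded 3 counts in a library, some were called all the same, such as Hist2h2ac and Hist1h2bj at 0 against 3 counts in hypothalamus. The counting interval of these calls held 0, so at this depth such differences could not be told from counting error.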
